A study of Homo sapiens with 4 samples.

Results

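The nuclear genes that encode the proteins of the mitochondrial ribosome were examined for association of their mRNAs with the RNA-binding protein TIA1 in KYSE180 cells, an established esophageal squamous cell carcinoma (ESCC) line. Members were all genes with a RefSeq mRNA accession on the array and a current symbol that starts with MRPL (large subunit) or MRPS (small subunit) followed by a number. This gave 77 genes, 49 of the large and 28 of the small subunit, among 18191 genes named on the array. The group called TIA1 RIP held RNA recovered with an anti-TIA1 antibody from cytoplasmic lysates (RNA immunoprecipitation, 2 arrays), and the group called total held total RNA used as input (2 arrays). All cells were KYSE180 with no other treatment named in the labels, and each array carried Cy3-labelled cRNA made from 0.2 ug of RNA. The sources used here did not state whether the total RNA came from whole cells or from the cytoplasmic lysate, nor whether the replicates came from separate cultures, so that p-values measure only the spread between these arrays, which may be technical. Arrays with RNA from a control antibody were not analysed here, so background binding to the beads or antibody could not be subtracted.

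Mitochondria have their own ribosome, which translates the few proteins encoded by mitochondrial DNA, all of them core subunits of the oxidative phosphorylation complexes. Its RNAs come from mitochondrial DNA, whereas all of its proteins are encoded in the nucleus, translated by cytoplasmic ribosomes and imported. The mRNAs of these proteins are therefore within reach of cytoplasmic RNA-binding proteins. TIA1 is known to bind uridine-rich stretches of RNA, to take part in splicing in the nucleus and to repress the translation of bound mRNAs in the cytoplasm, and it is a component of stress granules.

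The arrays differed in brightness. The 75th percentile of the processed signal was 1514 and 1271 intensity units on TIA1 RIP arrays 1 and 2, 714 on total RNA array 1 and 69.9 on total RNA array 2. On that last array 32.2% of the spots were well above background, compared with 45.8% to 48.4% on the other arrays. Signals were put on a log2 scale with the 75th percentile of each array at 0. Detection was required on both arrays of 1 or both groups, which 11590 genes met. Over these genes, total RNA 2 correlated with the other arrays at r = 0.69 to 0.75, and the remaining pairs at 0.88 to 0.94, all across genes, which are not independent replicates. TIA1 RIP 1 correlated more closely with total RNA 1 (r = 0.94) than with TIA1 RIP 2 (r = 0.93). Since total RNA 2 stood apart, list medians are given against each total RNA array, or in single pairs of arrays, beside those on the means. All 6 squamous epithelial markers examined (KRT5, KRT14, KRT6A, TP63, SFN and DSG3) were detected on all 4 arrays. Among markers of other cells, PTPRC was detected on all 4 arrays and COL1A1 on 3, and PECAM1, COL3A1 and CD3E on none. Their part in the results was not tested.

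All 77 mitochondrial ribosomal protein genes met this requirement, and 75 of them (97.4%) were detected on all 4 arrays, against 71.9% of all genes. The array held 91 probes for them, of which 86 were detected on all 4 arrays and 1 on none. MRPL1 and MRPL42 were not well above background on total RNA 2. The signals of the members differed little between the TIA1 RIP arrays, with a standard deviation of the difference of 0.34 (log2) compared with 0.90 over all genes. It was 0.31 over oxidative phosphorylation genes and 0.24 over cytoplasmic ribosomal protein genes, so this was not particular to the members. Between the total RNA arrays this standard deviation was 1.37 over the members and 2.01 over all genes. Of 14 members with 2 probes, 12 had both in use, and in 9 of these both probes gave a ratio in the same direction. The exceptions were MRPS5, MRPL10 and MRPS16.

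The members as a group stood slightly below the median gene in TIA1 RIP, and the extent depended on the total RNA array. The log2 ratio of TIA1 RIP over total RNA, relative to the median gene (whose own log2 ratio was 0.04), had a median of -0.22 over the 77 genes on the group means, with a spread between replicates of 0.25 (SD of the median, n = 2 per group). Against total RNA 1 the median was -0.54, and against total RNA 2 it was 0.016. In single pairs of arrays it was -0.40 and -0.70 for TIA1 RIP 1 and 2 over total RNA 1, and 0.14 and -0.13 for TIA1 RIP 1 and 2 over total RNA 2. The median on the means was therefore within the replicate spread, and among genes detected on all 4 arrays it was 0.038.

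Individual members differed far more than this median. The ratio relative to the median gene ran from -2.95 for MRPL23 to 3.29 for MRPL42. Relative to the median gene, 10 members (13.0%) were above 0 in all 4 pairs of a TIA1 RIP and a total RNA array, compared with 20.2% of all genes. These 10 were MRPL32, MRPL33, MRPL39, MRPL42, MRPL45 and MRPL49 of the large subunit and MRPS6, MRPS10, MRPS22 and MRPS27 of the small subunit. The members below the median gene in all 4 pairs numbered 27 (35.1%), compared with 21.1% of all genes, and comprised 19 large and 8 small subunit genes. Among genes detected on all 4 arrays, the members above numbered 14 and those below 19, so the imbalance depended on the set of genes compared. The shares of all genes in that setting are not given here. The pairs share arrays, so these counts describe order and are not independent observations.

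With total RNA 1 as the denominator, 50 members (64.9%) were below the median gene with both TIA1 RIP arrays and 14 were above (38.1% of all genes in either direction). With total RNA 2, 33 members were below and 35 above, compared with 44.5% of all genes in either direction. A group of 15 members, including MRPL50, MRPL47, MRPL58, MRPS9 and MRPS31, was below with total RNA 1 and above with total RNA 2 (19.5%, against 13.8% of all genes). The reverse held for MRPL2, MRPL10 and MRPS16. The direction of these 18 members relative to the median gene thus depended on the total RNA array. MRPL1 is among the 15 and, with MRPL42, among the 35 above with total RNA 2. Neither was well above background on that array.

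**Figure D1:**
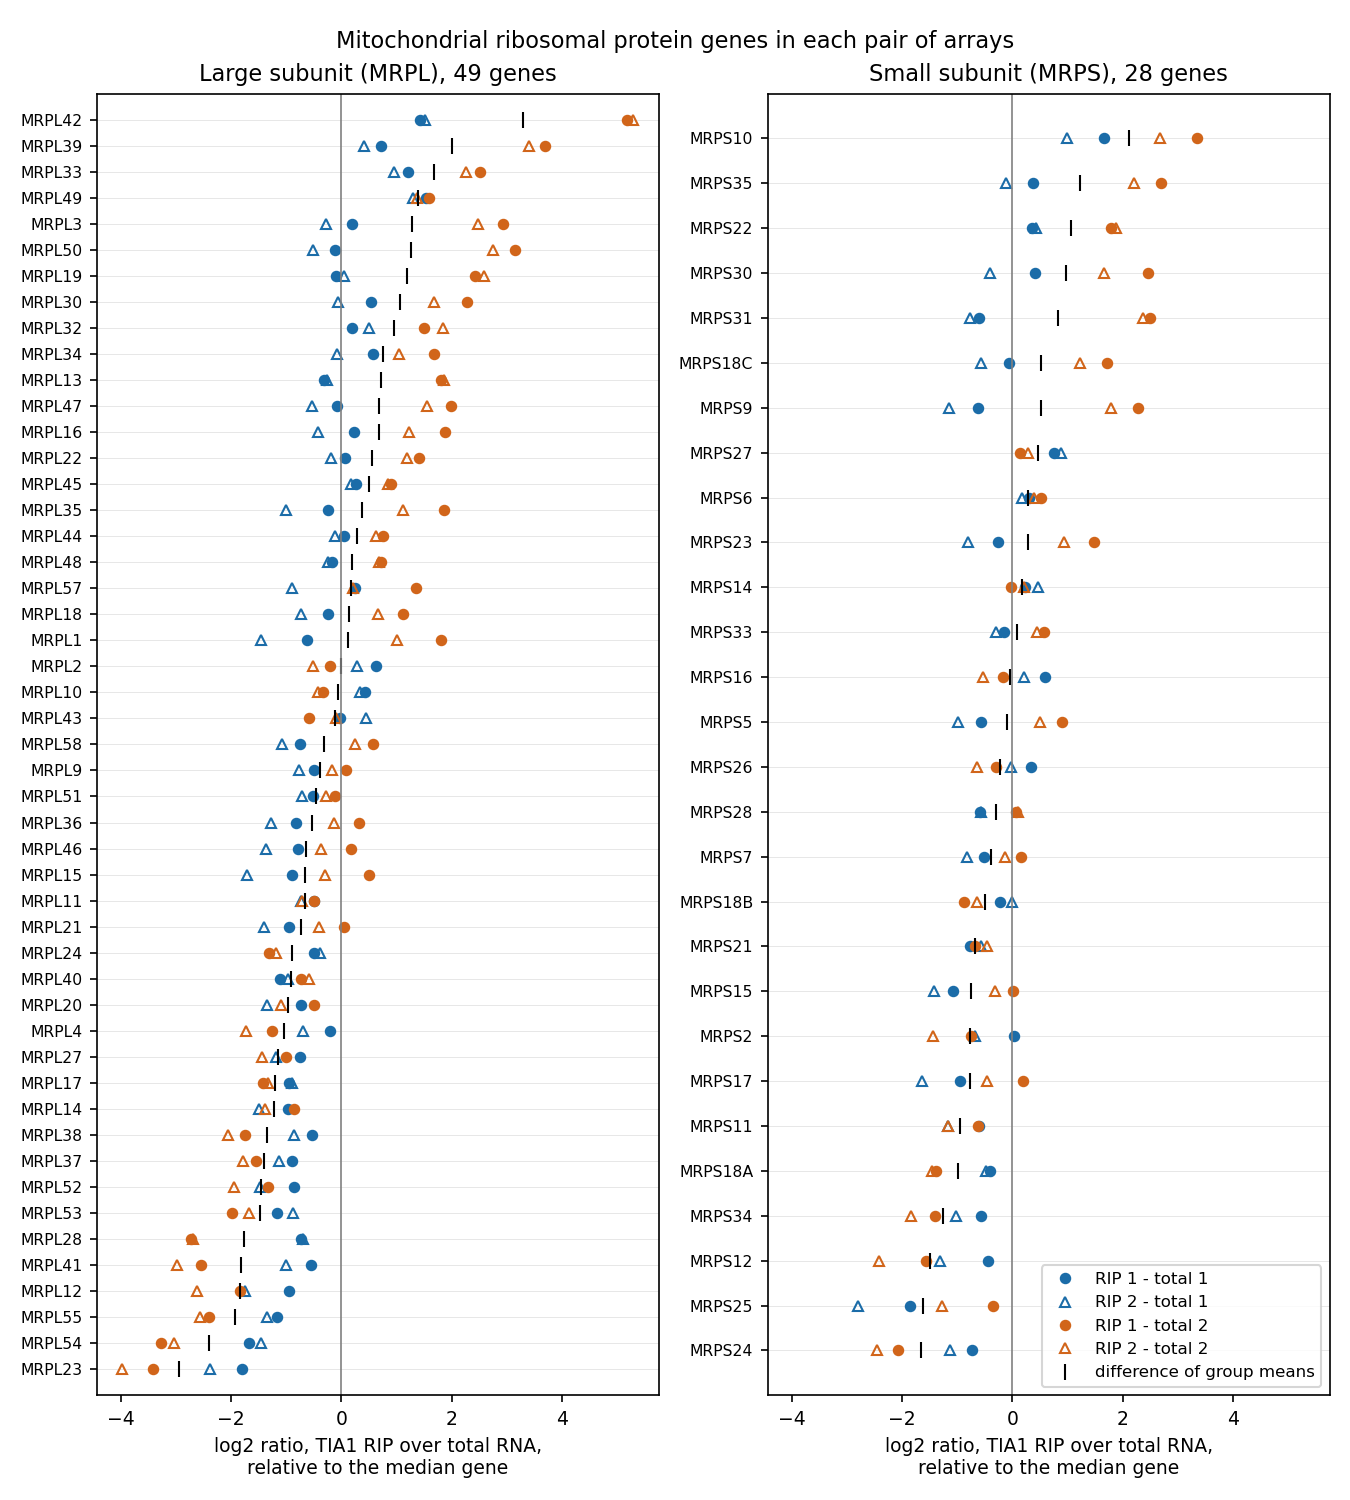
Log2 ratio of TIA1 RIP over total RNA relative to the median gene (x axis) for each of the 49 large and 28 small subunit genes (y axis, in the order of the difference of group means, black bars). Circles and triangles are TIA1 RIP 1 and 2, and blue and orange are the ratios over total RNA 1 and 2. Orange points spread from -3.97 to 5.29 and blue points from -2.80 to 1.66.

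No member, and none of the 11590 genes, passed an adjusted p of 0.05 in limma (background 0.0% of genes called), and the lowest adjusted p of a member was 0.768. At an unadjusted p under 0.05, MRPL42 and MRPS10 were higher in TIA1 RIP (1.25% of all genes were) and MRPL23 and MRPL54 were lower (2.87% of all genes were). MRPL42 was kept only through its detection in TIA1 RIP and was not well above background on total RNA 2, so its p supports nothing, and among genes detected on all 4 arrays MRPS10 was the higher member. The 2 arrays per group limit the precision of each ratio.

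MRPL42, a component of the large subunit that has no counterpart in bacteria, had the highest ratio of all members. Its log2 signal was 2.67 and 2.74 in TIA1 RIP and 1.17 and -2.42 in total RNA, in the order of replicates 1 and 2. Both TIA1 RIP values were above both total RNA values, and the value on total RNA 2 came from a spot that was not well above background. The group means were 2.71 ± 0.049 and -0.62 ± 2.54 (SD, n = 2), and the log2 ratio was 3.33 (SE 1.23). As this ratio includes a value not well above background, it is given as a description only. Against total RNA 1 alone, where the probe was detected, the ratio relative to the median gene was 1.42 and 1.51 for TIA1 RIP 1 and 2.

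MRPS10 encodes a small subunit protein of the head of the subunit with a bacterial homologue. Its log2 signal was 5.50 and 4.80 in TIA1 RIP and 3.77 and 2.25 in total RNA. The groups did not overlap, with the lowest value on total RNA 2, and the log2 ratio was 2.15 (SE 0.88, unadjusted p = 0.0448 in limma). MRPL49, whose product is found in mitochondrial but not in bacterial ribosomes, showed 5.62 and 5.35 in TIA1 RIP and 4.003 and 4.12 in total RNA. It was the member above the median gene for which the choice of total RNA array mattered least among the 6 highest, with pair ratios relative to the median gene between 1.30 and 1.58. Its log2 ratio on the means was 1.43 (SE 0.75, unadjusted p = 0.101 in limma). MRPL42 and MRPL49 were the members that exceeded the median gene by over 1 in all 4 pairs, as did 2.04% of all genes. For MRPL42 this includes the value on total RNA 2 that was not well above background.

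MRPL33, the homologue of a small bacterial large subunit protein, had signals of 4.91 and 4.63 in TIA1 RIP and 3.63 and 2.49 in total RNA, with no overlap between the groups (log2 ratio 1.71, SE 0.81). MRPL39, another mitochondrial addition to the large subunit, had signals of 3.51 and 3.17 against 2.70 and -0.10, again without overlap (log2 ratio 2.04, SE 1.07). Both its probes gave nearly the same ratio, 2.07 and 2.00. For the next members in order the groups overlapped. MRPL3, a protein close to the peptidyl transferase centre, had signals of 4.25 and 3.75 in TIA1 RIP and 3.97 and 1.40 in total RNA. MRPL50 had signals of 3.71 and 3.28 against 3.74 and 0.65. Their ratios of 1.31 (SE 1.03) and 1.29 (SE 1.13) came from total RNA 2, since relative to the median gene neither exceeded 0.20 in any pair with total RNA 1.

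At the other end, MRPL23, which lies near the exit of the tunnel through which the nascent chain leaves the ribosome, had the lowest ratio. Its log2 signal was 0.55 and -0.05 in TIA1 RIP and 2.28 and 4.05 in total RNA. The groups did not overlap, and the log2 ratio was -2.91 (SE 0.90, unadjusted p = 0.0150 in limma). MRPL54, without a bacterial counterpart, had signals of 1.74 and 1.93 against 3.33 and 5.08, also without overlap, with a log2 ratio of -2.37 (SE 0.89, unadjusted p = 0.0326 in limma). MRPL55 had signals of 3.56 and 3.34 against 4.64 and 6.03 (log2 ratio -1.89, SE 0.84, unadjusted p = 0.0602 in limma). MRPL23, MRPL54 and MRPL55 were below the median gene by over 1 in all 4 pairs, as were 4.52% of all genes.

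MRPL12, the homologue of the bacterial stalk protein that recruits translation factors, had signals of 4.21 and 3.38 in TIA1 RIP and 5.08 and 6.13 in total RNA (log2 ratio -1.81, SE 0.83), and its probes gave -1.79 and -1.82. MRPL41 had signals of 5.995 and 5.52 against 6.46 and 8.62 (log2 ratio -1.78, SE 0.96). MRPL28 had 3.40 on both TIA1 RIP arrays and 4.05 and 6.21 in total RNA (log2 ratio -1.73, SE 0.95). In all 3 genes both TIA1 RIP values lay below both total RNA values, and the distance to total RNA 2 was larger than that to total RNA 1. Over all members, both TIA1 RIP arrays were below both total RNA arrays in 30 genes (39.0%, against 20.4% of all genes) and above them in 10 (13.0%, against 20.9% of all genes). The 10 include MRPL42, which was not well above background on total RNA 2.

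**Figure D2:**
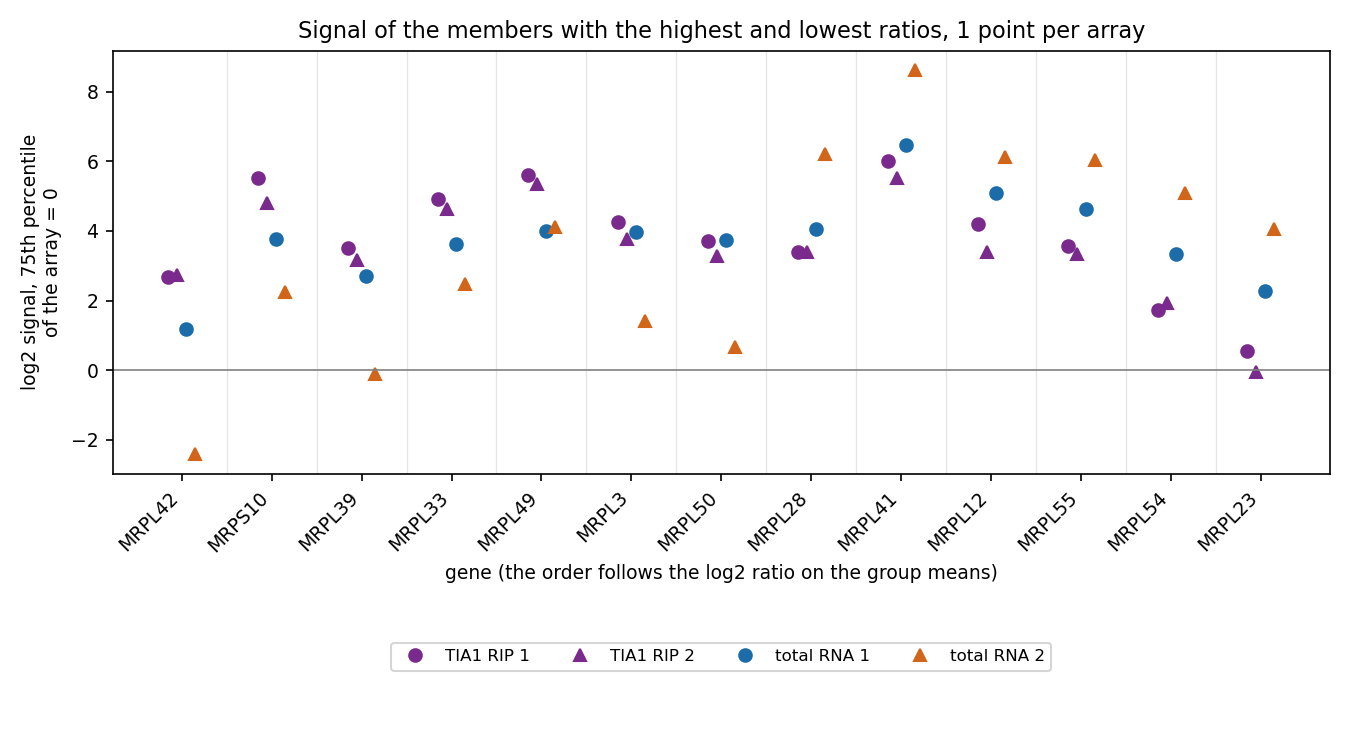
Log2 signal, with the 75th percentile of each array at 0 (y axis), of the 7 members with the highest and the 6 with the lowest ratios (x axis), 1 point per array. The TIA1 RIP arrays (purple) lie close together, while total RNA 2 (orange) lies farther from them than total RNA 1 (blue) in 12 of the 13 genes; the exception is MRPL49. Signals of different genes come from different probes and are not compared.

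For the 5 members that differed from the median gene by over 1 in all 4 pairs, the 30 bases richest in uridine among the last 200 of the annotated transcript are shown, since TIA1 is known for uridine-rich sites. They were read on the transcript strand from the GRCh37 genome with the GENCODE annotation, all lie in the 3′ UTR, and capitals mark runs of 3 or more T. The windows lie at chr12:93909931-93909960 on the plus strand (MRPL42), chr11:64894751-64894780 on the plus strand (MRPL49), chr11:1977794-1977823 on the plus strand (MRPL23), chr19:3767431-3767460 on the plus strand (MRPL54) and chr1:228294388-228294417 on the minus strand (MRPL55).
MRPL42: ttccctatgttgtgtgttcttcTTTgctgc
MRPL49: ttgttaatgcaagTTTTTaTTTggctgtat
MRPL23: tcccgacacctaaataaaagtcttgctgca
MRPL54: ttgccgTTTTcccggaggacgtggacTTTT
MRPL55: tgttcttaaatcactcgttcttgaagctgc

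The windows of MRPL42 and MRPL49, above the median gene, held 16 T of 30. Those of MRPL23, MRPL54 and MRPL55, below it, held 7, 11 and 12. These genes were picked by their ratios in these data, and MRPL42 was not well above background on total RNA 2. Among other members, the windows of MRPL4 and MRPL20, below the median gene in all 4 pairs, held 19 T each. That of MRPL33, above it in all 4 pairs, held 18. The low genes also had a higher GC content than MRPL42 and MRPL49. A link of T content to the ratios was not tested. The annotated MRPL42 transcript is 15557 bases long, with a 3′ UTR of 14993 bases. Whether the probe measured mRNA with this end was not tested. The median of this measure was 15 over all members and 15 over all genes. A run of TTTTT in the last 200 bases, searched on the transcript strand only, was present in 41 of 77 members (53.2%) and in 50.4% of all genes, and a match of letters is a description and not a binding site. The share was thus close to that of all genes.

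The subunits differed little. The median ratio relative to the median gene was -0.31 over the 49 large subunit genes and -0.16 over the 28 small subunit genes, and the difference of -0.15 was smaller than the spread between replicates (SD 0.29, n = 2 per group). The difference was -0.12 against total RNA 1 and -0.10 against total RNA 2, and in single pairs -0.16 and -0.15 in those with total RNA 1 and 0.08 and -0.15 in those with total RNA 2. The range was wider in the large subunit (-2.95 to 3.29) than in the small subunit (-1.65 to 2.11). The structure of the human mitochondrial ribosome places MRPS30 and MRPS18A in the large subunit despite their symbols. With both moved, the difference of the medians stayed at -0.15 on the means and was 0.07 against total RNA 1. The 46 members with a bacterial homologue had a median of -0.34 on the means, -0.62 against total RNA 1 and -0.015 against total RNA 2. The 29 without one had 0.09, -0.33 and 0.41, with wide and overlapping ranges (-2.95 to 2.11 and -2.41 to 3.29). MRPS18A and MRPS18B, relatives of a bacterial protein that is represented by MRPS18C, were left out of this division.

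Among members chosen for their role, MRPL45, MRPL44 and MRPL58 of the large subunit had log2 ratios smaller in size than their SEs. MRPL45, which anchors the ribosome to the inner membrane, had log2 signals of 3.75 and 3.64 in TIA1 RIP and 3.40 and 2.93 in total RNA, and was above the median gene in all 4 pairs (log2 ratio 0.53, SE 0.76). MRPL44, which resembles ribonuclease III, had signals of 1.84 and 1.66 against 1.72 and 1.16, and its TIA1 RIP values overlapped those of total RNA (log2 ratio 0.31, SE 0.77). MRPL58, a peptidyl-tRNA hydrolase that became a ribosomal subunit, had signals of 4.68 and 4.31 against 5.34 and 4.20 (log2 ratio -0.27, SE 0.82). Its TIA1 RIP values lay between the total RNA values.

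In the small subunit, MRPS12, which takes part in decoding, had log2 signals of 4.01 and 3.11 in TIA1 RIP and 4.37 and 5.66 in total RNA, without overlap (log2 ratio -1.45, SE 0.86). MRPS22, a mitochondrial addition, had signals of 4.85 and 4.90 against 4.42 and 3.15, and MRPS27, a pentatricopeptide repeat protein, had 2.59 and 2.69 against 1.76 and 2.53. In both genes the TIA1 RIP values were the higher ones on all arrays, with log2 ratios of 1.09 (SE 0.82) and 0.49 (SE 0.78). MRPS30 had signals of 2.76 and 1.92 against 2.28 and 0.39, which overlapped (log2 ratio 1.01, SE 0.94).

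The MRPS18 genes encode 3 related proteins that occupy different places on the ribosome, and they differed in their ratios. MRPS18A had log2 signals of 2.92 and 2.81 in TIA1 RIP and 3.24 and 4.40 in total RNA, MRPS18B had 3.15 and 3.34 against 3.29 and 4.12, and MRPS18C had 4.98 and 4.44 against 4.96 and 3.35. MRPS18A and MRPS18B were below the median gene in all 4 pairs, whereas MRPS18C was below it with total RNA 1 and above it with total RNA 2. The log2 ratios were -0.95 (SE 0.81), -0.46 (SE 0.78) and 0.56 (SE 0.88), and no difference between the 3 genes was tested. MRPS16, which is conserved from bacteria, could not be given a single ratio. One of its probes had a log2 ratio of -1.03 (5.42 and 5.18 in TIA1 RIP, 5.88 and 6.79 in total RNA) and the other a ratio of 1.03 (3.56 and 2.99 against 1.77 and 2.71), which cancelled in the mean. MRPS36 is currently named KGD4, a component of the 2-oxoglutarate dehydrogenase complex, and was therefore not a member. Its signals were 3.63 and 3.33 against 3.07 and 1.71 (log2 ratio 1.09, SE 0.84).

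GAPDH is the study's reference, and its threshold for enrichment is 2.5-fold in both the array and the sequencing data of the RIP. Only the arrays were used here, so the counts below are not the study's own calls. Relative to GAPDH, 54 of the 77 members (70.1%) were over this threshold on the group means, compared with 74.1% of all genes. The log2 signal of GAPDH, an enzyme of glycolysis, was 6.49 and 6.69 in TIA1 RIP and 7.67 and 9.63 in total RNA, with a log2 ratio of -2.06 (SE 0.92, unadjusted p = 0.0610 in limma), so that a ratio near 0 on the scale above is a ratio well over 1 relative to GAPDH. The count of members over the threshold was 22 (46.5% of all genes) and 11 (39.5%) in the pairs of TIA1 RIP 1 and 2 with total RNA 1, and 68 (78.7%) and 63 (79.3%) in the pairs with total RNA 2. Without total RNA 2 it was 17 (22.1%) on the means, compared with 42.2% of all genes. In all 4 pairs, 10 members were over the threshold (13.0%, against 26.2% of all genes), namely MRPL10, MRPL32, MRPL33, MRPL39, MRPL42, MRPL49, MRPS10, MRPS14, MRPS22 and MRPS27. The size of the fold depended on the total RNA array. MRPS10 was 18.4-fold over GAPDH on the means, 5.51-fold against total RNA 1 and 61.7-fold against total RNA 2, and MRPL39 was 17.1-fold, 3.27-fold and 89.5-fold. MRPL49 was 11.2-fold, 5.89-fold and 21.3-fold, and MRPL23 0.554-fold, 0.517-fold and 0.594-fold. In a limma fit of values relative to GAPDH no member passed an adjusted p of 0.05, and 5 (6.49%) were higher at an unadjusted p under 0.05 (MRPL33, MRPL42, MRPL49, MRPS10 and MRPS27), compared with 17% of all genes. In this list and in that of the 4 pairs, MRPL42 rests partly on the value not well above background on total RNA 2, so its p supports nothing. The 68 and 63 members in the pairs with total RNA 2 include MRPL42 and MRPL1, with the same limit.

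Other genes needed for mitochondrial translation were examined as lists. All 5 mitoribosome proteins with other symbols were below the median gene on the means, with a median of -0.71 (-0.60 against total RNA 1 and -0.39 against total RNA 2). Of them, 3 were below it in all 4 pairs, as were 21.1% of all genes. GADD45GIP1, a large subunit protein also known as CRIF1, had log2 signals of 2.88 and 2.93 in TIA1 RIP and 4.27 and 6.31 in total RNA. The groups did not overlap, and the log2 ratio was -2.38 (SE 0.93, unadjusted p = 0.0382, adjusted p = 0.768 in limma). DAP3, a GTP-binding protein of the small subunit, had signals of 5.49 and 5.07 against 5.80 and 5.19, which overlapped (log2 ratio -0.22, SE 0.78).

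The 16 mitochondrial translation factors had a median of 0.51 on the means, which was -0.38 against total RNA 1 and 1.69 against total RNA 2. The initiation factor MTIF2 had log2 signals of 1.89 and 1.47 in TIA1 RIP and 2.62 and -3.25 in total RNA, where it was not well above background on array 2. The elongation factor GFM1 had signals of 3.23 and 2.55 against 3.39 and 0.52, and LRPPRC, which stabilizes mitochondrial mRNAs, had 0.28 and -0.20 against 1.28 and -1.71. The TIA1 RIP values of all 3 genes lay between the total RNA values. The elongation factor TUFM had signals of 5.76 and 5.70 against 6.50 and 7.98, without overlap (log2 ratio -1.51, SE 0.85). OXA1L, the insertase that receives the nascent chains at the inner membrane, had 4.94 and 4.72 against 4.26 and 3.76, without overlap in the other direction (log2 ratio 0.82, SE 0.76). The 25 genes of mitoribosome assembly and rRNA modification had a median of -0.01 on the means, -0.21 against total RNA 1 and 0.17 against total RNA 2. The 18 mitochondrial aminoacyl-tRNA synthetases had medians of 0.02, -0.22 and 0.14. No gene in these lists passed the adjusted threshold, and GADD45GIP1 was the only one at an unadjusted p under 0.05.

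Genes of the cytoplasmic ribosome and of oxidative phosphorylation are shown for comparison. For the 82 genes of cytoplasmic ribosomal proteins the median was -1.37 on the means and -1.07 to -1.72 in the single pairs. Of them, 70 were below the median gene in all 4 pairs (85.4%, against 21.1% of all genes). The 78 nuclear genes of oxidative phosphorylation subunits had a median of -0.94, -0.66 to -0.86 in the single pairs, with 51 (65.4%) below in all 4. The mitochondrial ribosomal protein genes thus lay between these lists and the median gene against total RNA 1, and at the median gene against total RNA 2. No difference between lists was tested.

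**Figure D3:**
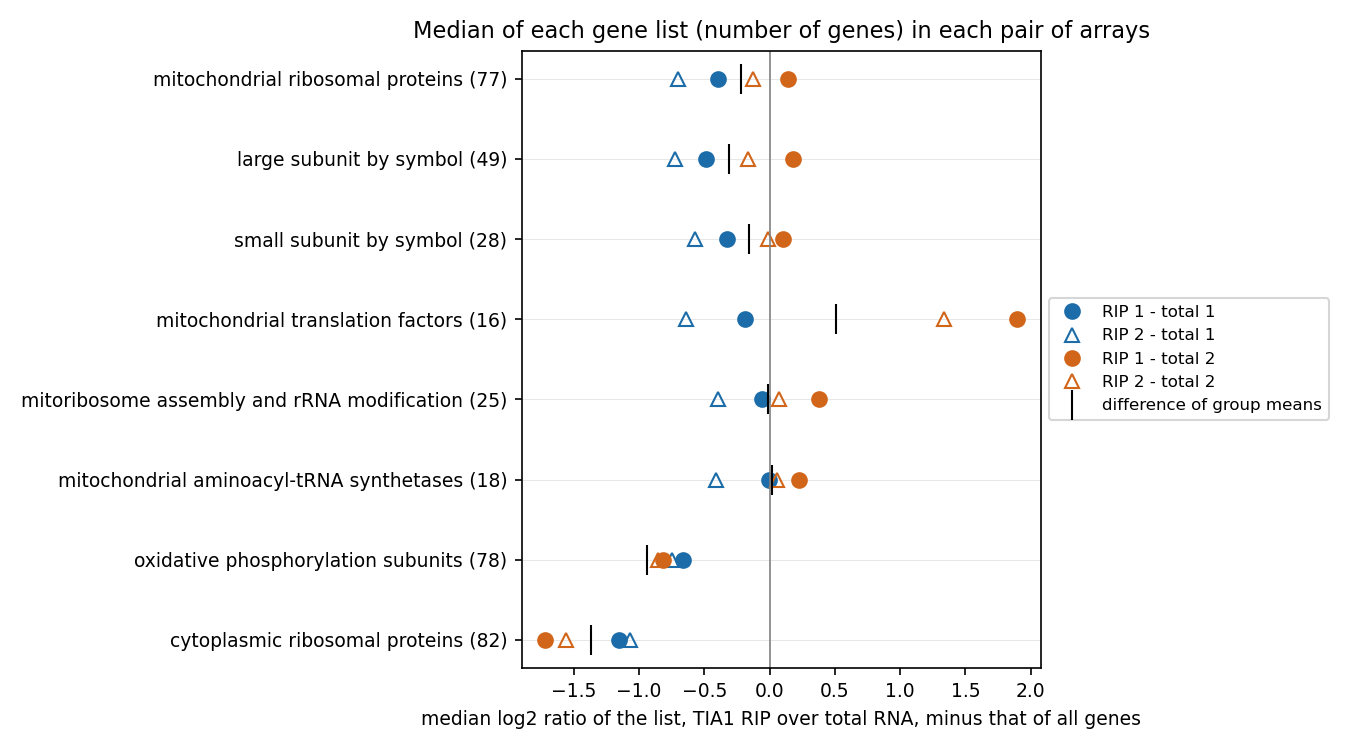
Median log2 ratio of TIA1 RIP over total RNA minus that of all genes (x axis) for each gene list with its number of genes (y axis), in the 4 pairs of arrays (circles and triangles, TIA1 RIP 1 and 2, blue and orange, total RNA 1 and 2) and on the group means (black bars). The cytoplasmic ribosomal protein genes and the oxidative phosphorylation genes lie below 0 in every pair, while the mitochondrial ribosomal protein genes lie on both sides.

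The ratios of the members went with base composition. Across the 77 members, Spearman's rho between GC content of the annotated transcript and the log2 ratio on the means was -0.78, with -0.41 against total RNA 1 and -0.84 against total RNA 2. Over 11574 genes with an annotated transcript the values were -0.66, -0.05 and -0.75. With the uridine content of the 3′ UTR, which shares its bases with the GC content, rho over the members was 0.70 on the means, 0.42 against total RNA 1 and 0.75 against total RNA 2. The difference between the total RNA arrays also went with the GC content of the members (rho = -0.85), and the part of base composition or of that array in the ratios was not tested. All of these correlations are across genes of the same 4 arrays and describe these arrays.

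Divided by GC content into 4 bins, the members with the lowest GC content (35.0% to 43.0%, 20 genes, among them MRPL42, MRPL39, MRPL33 and MRPS10) had a median ratio of 0.94 on the means, close to the 0.98 of all genes within the same limits. The bin with the highest GC content (55.1% to 66.7%, 19 genes, among them MRPL23, MRPL54, MRPL55, MRPL12, MRPL41 and MRPL28) had a median of -1.40, compared with -0.79 of all genes within these limits. Against total RNA 1, the medians from the lowest to the highest bin were -0.06, -0.50, -0.89 and -0.81, while those of all genes were between -0.04 and 0.07. Against total RNA 2 they were 1.90, 0.69, -0.18 and -1.82, and those of all genes 1.98, 0.85, -0.27 and -1.48. MRPL49, with a GC content of 53.1%, was above the medians of its bin with both total RNA arrays. The members were also shorter than other genes, with a median transcript length of 1224 bases compared with 3096, and a median 3′ UTR of 464 bases compared with 1181.

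**Figure D4:**
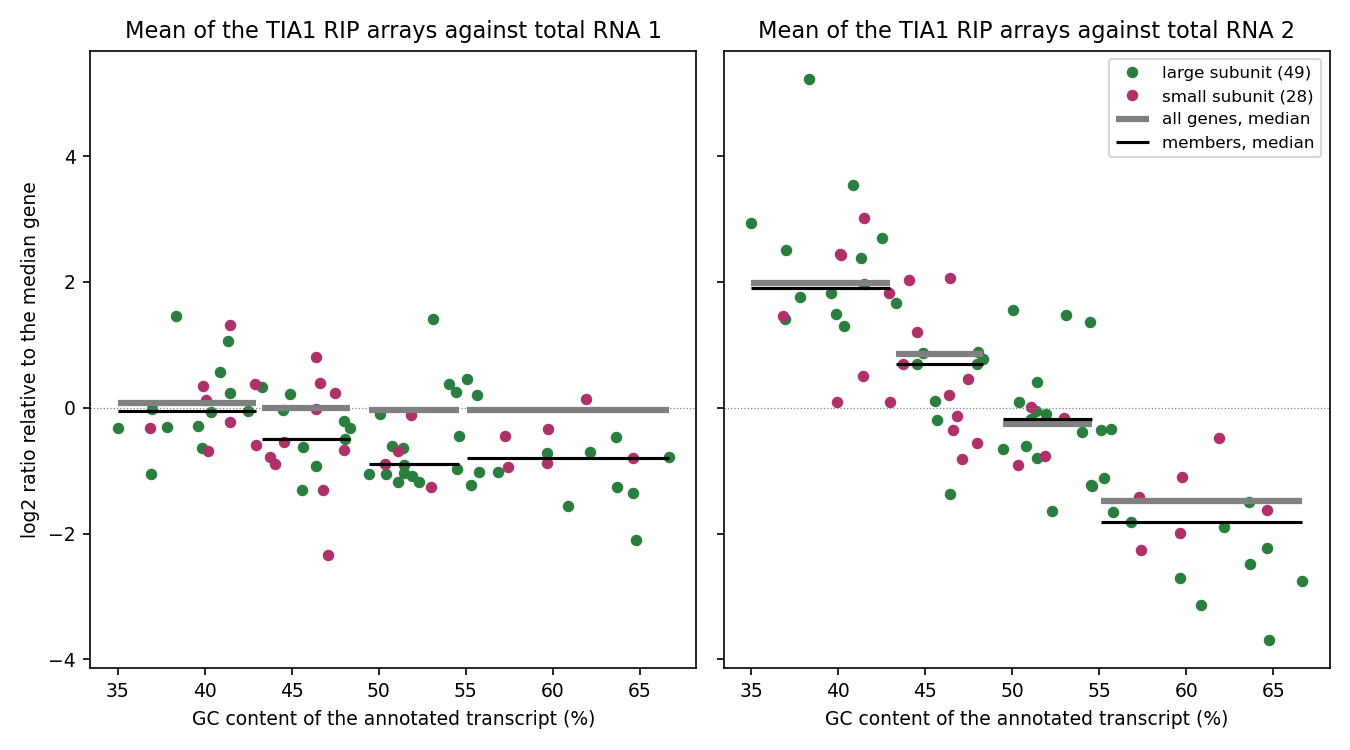
Log2 ratio of the mean of the TIA1 RIP arrays over total RNA 1 (left) and total RNA 2 (right) relative to the median gene (y axis) against the GC content of the transcript (x axis, %) for each member. Horizontal lines are medians within 4 bins of the members by GC content, black for members and grey for all genes in the same limits; against total RNA 2 both fall with GC content, and against total RNA 1 the grey lines stay between -0.04 and 0.07.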

How the data were processed

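RNA from KYSE180 TIA1 RIP and total RNA was hybridized to 1-colour Agilent arrays, 2 per group. The authors made the deposited intensity of each spot (the processed signal) by scanning and background subtraction in Agilent Feature Extraction, version 10.7.1.1 per the file headers, without normalization between arrays. All 4 arrays were on 1 slide and in 1 scan, so no batch could be tested.

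Of 58717 spots other than controls per array, those marked as uneven or deviant (299 to 382 per array) were left out, and no spot was saturated. The log2 processed signal minus the 75th percentile of its array was averaged over the spots of a probe. A probe was detected where at least 0.5 of its spots were well above background, and was kept when this held for both arrays of a group. RefSeq names (GRCh38.p14, used for names only) were found for 24546 of 25219 probes with an mRNA accession (97.3%), and the kept probes of a gene were averaged. Transcript features and coordinates come from GENCODE on GRCh37.

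limma 3.58.1 (lmFit and eBayes, R 4.3.3) tested TIA1 RIP against total RNA, with Benjamini-Hochberg adjustment over the 11590 genes at a threshold of 0.05. The fit was also run on simulated data with independent noise on each array, which does not cover deviations that these arrays share. The list of members got no test and is described beside all genes. The named genes are the 6 highest and 6 lowest members detected on all 4 arrays, those beyond 1 (log2) from the median gene in all 4 pairs, and members and other genes of mitochondrial translation chosen by role. The members, lists and rules were chosen with earlier results of these data known. Alternatives covered scaling, background, detection, probe choice, GC content, reference gene, fold, the replicate block and each array left out. IgG immunoprecipitates and RIP-seq were not analysed here. A single marker gene of other cells is not reported here. Python 3.11.15 and matplotlib 3.10.9 made the figures.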

Additional observations from a re-analysis of the deposited data

How the results depend on the processing

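The median log2 ratio of the members relative to all genes was -0.22 and became 0.24 with normexp background correction, 0.038 among genes detected on all 4 arrays and 0.15 without a detection filter, and it ran from -0.54 (without total replicate 2) to 0.016 (without total replicate 1) when single arrays were left out. The difference between large and small subunit, on the means of the arrays used, ran from -0.25 to -0.048 under the alternatives, but it was above 0 (0.08) in the single pair of TIA1 RIP 1 and total RNA 2 and (0.07) against total RNA 1 with subunits assigned from the structure. The cause of these shifts was not tested. The replicate numbers have no stated meaning; same-numbered arrays deviated together over 11587 genes (r = 0.458, a single value for 2 pairs). With the replicate block, 145 genes passed the adjusted threshold (1.25%), among them 1 member, MRPL42 (log2 ratio 3.33, adjusted p = 0.0209 in limma), which was kept through TIA1 RIP only and was not well above background on total RNA 2, so that this call supports nothing. At an unadjusted p under 0.05, 5 members (6.49%) were lower in place of 2, compared with 6.71% of all genes. With the block and the GC correction no member passed the adjusted threshold, 4 (5.19%) were higher and 8 (10.4%) lower at the unadjusted one, compared with 7.41% and 11% of all genes. The members higher at the unadjusted threshold numbered 2 (1.25% of all genes), and 4 with normexp (2.99% of all genes), 1 among genes detected on all 4 arrays (1.22%), 1 without the filter (0.462%) and 5 relative to GAPDH (17%), where 0 were lower (0.302%). MRPL42, with the same limit, is in each of these counts of higher members except that among genes detected on all 4 arrays. Leaving out single arrays gave 0 to 9 members past the adjusted threshold in each direction and 0 to 17 past the unadjusted one in each direction. The highest values came without total replicate 1, with a lone total RNA array assumed to vary like the TIA1 RIP arrays, when the adjusted threshold was passed by 1863 genes upward (16.1%) and 1683 downward (14.5%), and the unadjusted one by 23.6% and 24.7%. The 54 members over 2.5-fold relative to GAPDH became 5 with the median gene as the reference (12.5% of all genes), and 17 (without total replicate 2, 42.2% of all genes) to 64 (without total replicate 1, 79.4%) with arrays left out. With an array left out, 2 of the 4 pairs remained, so the counts of members in all pairs could only stay or rise. Members above the median gene in all remaining pairs numbered 12 to 35. There were 19 without TIA1 RIP replicate 2 and 35 without total replicate 1 (44.5% of all genes). Those below it numbered 28 to 50, with 50 without total replicate 2 (38.1% of all genes). The shares of all genes without a TIA1 RIP array are not given here. Among genes detected on all 4 arrays they numbered 14 above and 19 below, in place of 10 and 27.

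Several named genes changed direction. Not all were near 0 in the main fit, where the log2 ratio was 1.29 for MRPL50, 1.99 for MTIF2 and 1.09 for KGD4. With the GC correction, with or without the block, the log2 ratio was -0.073 for MRPL50, -0.28 for MRPL44, -0.022 for MRPL45, -0.71 for MRPS18C, -0.29 for KGD4, -0.16 for GFM1 and -0.66 for LRPPRC. With quantile normalization, cyclic loess and normexp it was 0.069, 0.087 and 0.21 for MRPL58, 0.40, 0.32 and 0.38 for MRPS16 and 0.29, 0.26 and 0.23 for DAP3. LRPPRC was at -0.19 with normexp and -0.83 with the probes detected on all 4 arrays, and MRPS18C at -0.054 without the filter. With single arrays left out, the range ran from the value without total replicate 2 to that without total replicate 1: -0.25 to 2.84 for MRPL50, -0.25 to 1.36 for MRPS18C, -0.50 to 2.37 for GFM1, -0.94 to 4.93 for MTIF2, -1.24 to 1.75 for LRPPRC, -0.84 to 0.30 for MRPL58 and -0.52 to 0.090 for DAP3. For MRPS16 it ran the other way, from 0.46 without total replicate 2 to -0.46 without total replicate 1. Of the values of named genes under alternatives, 35 changed direction and 406 kept their direction and side of the adjusted threshold. The others passed that threshold in place of missing it, most of them without total replicate 1. That setting leaves total RNA 2 as the only total RNA array, so nothing is concluded from them.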
